A study of Mus musculus with 5 samples.

Results

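The regions described here are 100 kb windows of the mouse autosomes in which an antibody to 5-hydroxymethylcytosine (5hmC) recovered the most DNA relative to an antibody to 5-methylcytosine (5mC). Among 23366 windows with 300 or more input reads, each window was given the ratio of its hMeDIP RPM (reads scaled to the library's total on chromosomes 1 to 19 and X) to its MeDIP RPM, and the highest 2% were taken, which are 467 windows. The ratio of the antibodies thus chose the members, and its values below are a description with no test.

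The study profiled both marks in embryonic stem cells of the mouse, kept feeder-free with leukaemia inhibitory factor and 10% serum. The hMeDIP library (5hmC antibody), the MeDIP library (5mC antibody) and the MethylCap eluates at 600 mM and at 800 mM NaCl came from E14 clones of the SIGTR gene-trap library, at passages 11 to 14, whereas the input was DNA from chromatin of another line, TNG-A, in which Nanog carries an EGFP reporter. The labels do not say which clones or how many were used. In hMeDIP and MeDIP, sheared and denatured DNA is pulled down with an antibody, while MethylCap captures double-stranded fragments with a methyl-CpG binding domain (MBD) and releases them with salt. There was 1 library of each kind, with 18519740 reads on chromosomes 1 to 19 and X in hMeDIP, 10442811 in MeDIP, 10462783 and 7507520 in the 600 mM and 800 mM eluates and 18676265 in the input. No difference therefore has a replicate check, no test was possible, and intervals are exact 95% Clopper-Pearson intervals that cover counting error only. Those of the antibody ratio do not allow for the choice of members by the same reads. Positions are in mm9, and no gene annotation of that build was used here.

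5-Methylcytosine is the main DNA modification of mammals and is placed mostly on CpG sites by DNA methyltransferases. The Tet dioxygenases oxidise it to 5hmC, which is abundant in embryonic stem cells and neurons and is known from gene bodies, enhancers and the edges of CpG islands. MBD proteins bind methylated CpG far better than hydroxymethylated CpG, so MethylCap reports mainly dense 5mC, while an antibody to 5hmC binds 5hmC itself.

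The members had a median 5hmC/5mC ratio of 1.68, with a range of 1.57 to 2.87, against a median of 1.01 over all 23366 windows. Summed over the members, 614151 hMeDIP and 198738 MeDIP reads gave a ratio of 1.74 (interval 1.73 to 1.75). At a ratio of 1.5 or more there were 706 windows, which is 3.02% of all windows, and all 467 members are among them by the rule. The threshold cut through a continuous range. The last member, on chromosome 3 at 96000001–96100000, had a ratio of 1.57 (interval 1.38 to 1.78), and the first window left out, on chromosome 15 at 33100001–33200000, also had 1.57 (interval 1.26 to 1.96). The next 2 members inside, on chromosome 10 at 62200001–62300000 and on chromosome 9 at 38500001–38600000, stood at 1.57, as did the next 2 windows outside, on chromosome 6 at 67100001–67200000 and 52200001–52300000. The interval of 465 members lay wholly above the median window, which largely follows from their choice by the same reads. That of 310 members reached below the threshold, and that of 1616 other windows reached it from below. Which windows near the threshold are members is thus not settled at this depth.

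The ratio was also read on each DNA strand separately. Both strands come from the same libraries, and copies of 1 fragment can be read on either, so this split bears at most on counting error. Windows chosen as the highest 2% by plus strand reads had a median ratio of 1.79 on that strand and of 1.51 on the minus strand, which had not chosen them, against 1.01 over all windows on the minus strand. Of these 467 windows, 434 were above the minus strand median. The lists chosen on each strand shared 162 windows, 34.7% of either list. On the strand that had not chosen them the windows were thus lower than on the one that had, and still above the typical window.

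The member with the highest ratio lay on chromosome 7 at 140200001–140300000. It held 2079 hMeDIP, 408 MeDIP, 792 reads at 600 mM, 599 at 800 mM and 971 input reads, a 5hmC/5mC ratio of 2.87 (interval 2.58 to 3.20). Here hMeDIP stood at 2.16-fold and MeDIP at 0.751-fold over input, with the 600 mM eluate at 1.46-fold. All 10 of its 10 kb steps were above the median ratio of 10 kb steps, which was 1.01. That largely follows from the choice of the window by the same reads. In its step with the highest ratio, at 140290001–140300000, there were 171 hMeDIP and 22 MeDIP reads, a ratio of 4.38. Directly outside, the ratio was 1.67 in the 10 kb step before the window and 1.64 in the step after it.

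The window on chromosome 15 at 79700001–79800000 came second, with 1661 hMeDIP and 335 MeDIP reads (ratio 2.80, interval 2.48 to 3.15) over 1011 input reads. Of those input reads, 18.2% carried a 1 in the file's column 4, which no label or header explains, against a median of 7.87% over the members. The third, on chromosome 2 at 74500001–74600000, held 1397 hMeDIP, 285 MeDIP, 400 reads at 600 mM, 347 at 800 mM and 716 input reads, a ratio of 2.76. The fourth, on chromosome 6 at 52100001–52200000, held 1728 hMeDIP, 360 MeDIP, 530 reads at 600 mM, 426 at 800 mM and 774 input reads, a ratio of 2.71. In these windows hMeDIP was 1.97-fold and 2.25-fold over input while MeDIP was 0.712-fold and 0.832-fold, so one antibody was above input and the other below it over the same DNA. The 600 mM eluate was 0.997-fold and 1.22-fold, near the input level in the first and slightly above it in the second.

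The windows ranked 5 to 10 spanned a wide range of signal. On chromosome 3 at 88300001–88400000 (ratio 2.56), hMeDIP was 1.6-fold and MeDIP 0.625-fold over input, and the 800 mM eluate exceeded the 600 mM eluate by 1.72-fold. On chromosome 1 at 36900001–37000000 (ratio 2.48) and 138500001–138600000 (ratio 2.37), hMeDIP was 1.35-fold and 1.32-fold, and MeDIP 0.542-fold and 0.558-fold. On chromosome 13 at 44800001–44900000 (ratio 2.47), both antibodies were below input, with hMeDIP at 0.812-fold, MeDIP at 0.328-fold and the 600 mM eluate at 0.314-fold. Its hMeDIP level was near the median of 0.850-fold over all windows, and its MeDIP level was below the corresponding median of 0.863-fold. On chromosome 15 at 102800001–102900000 (ratio 2.41), hMeDIP was 1.90-fold and MeDIP 0.789-fold, and on chromosome 17 at 37100001–37200000 (ratio 2.34), hMeDIP was 1.07-fold and MeDIP 0.458-fold.

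Of the windows with the highest ratios, those ranked 3 on chromosome 2, 4 on chromosome 6, 8 on chromosome 15 and 16 on chromosome 11 (96100001–96200000) are at places where general knowledge of the mm9 map puts the Hoxd, Hoxa, Hoxc and Hoxb clusters, which encode the homeodomain factors that pattern the body axis. The RefSeq gene table of GRCm38.p6 has 9 Hoxd genes on chromosome 2, 11 Hoxa genes on chromosome 6, 9 Hoxc genes on chromosome 15 and 10 Hoxb genes on chromosome 11. Its coordinates are of another build and were not used, so the overlap of windows and genes was not checked, and these windows were singled out after their values were seen. The window on chromosome 11 held 1786 hMeDIP and 448 MeDIP reads over 754 input reads, a ratio of 2.25 (interval 2.03 to 2.5), with hMeDIP at 2.39-fold and MeDIP at 1.06-fold over input. In all 4 windows each of the 10 kb steps was above the median ratio of 10 kb steps. That largely follows from the choice of the windows by the same reads. Over all members the share of such steps had a median of 90% and an upper quartile of 100%. The steps of the 4 windows ranged in ratio up to 6.24, at 52100001–52110000 on chromosome 6, where there were 155 hMeDIP and 14 MeDIP reads. In embryonic stem cells Hox clusters are known as bivalent chromatin with little DNA methylation; the 600 mM eluate over these 4 windows was between 0.728-fold and 1.41-fold over input, against a median of 0.763-fold over all windows.

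**Figure D1:**
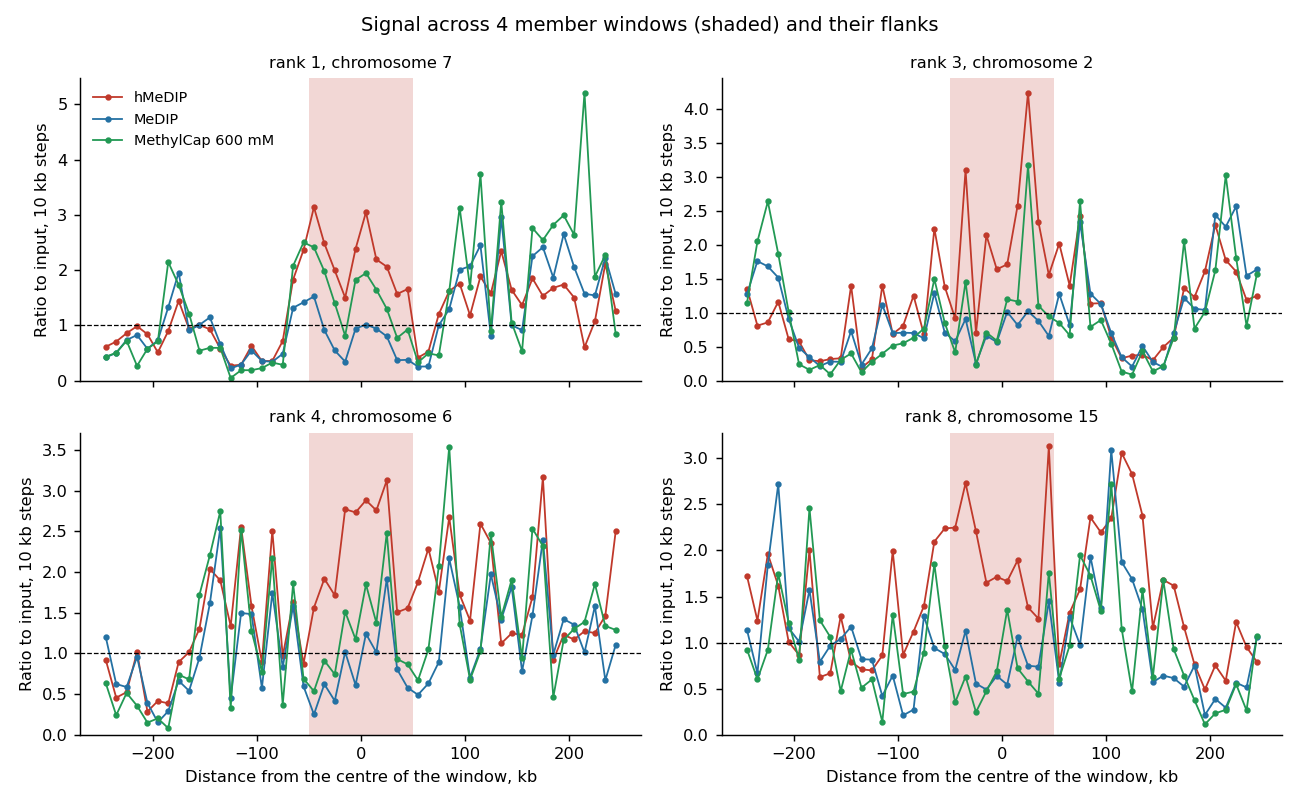
Ratio to input in steps of 10 kb (vertical axis) against the distance in kb from the centre of 4 member windows, with the member window shaded, for hMeDIP, MeDIP and the 600 mM MethylCap eluate. Inside each shaded window hMeDIP lies above MeDIP in every step, and in some steps of the flanks MeDIP exceeds it. The shaded windows were chosen by these antibody reads.

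**Figure D2:**
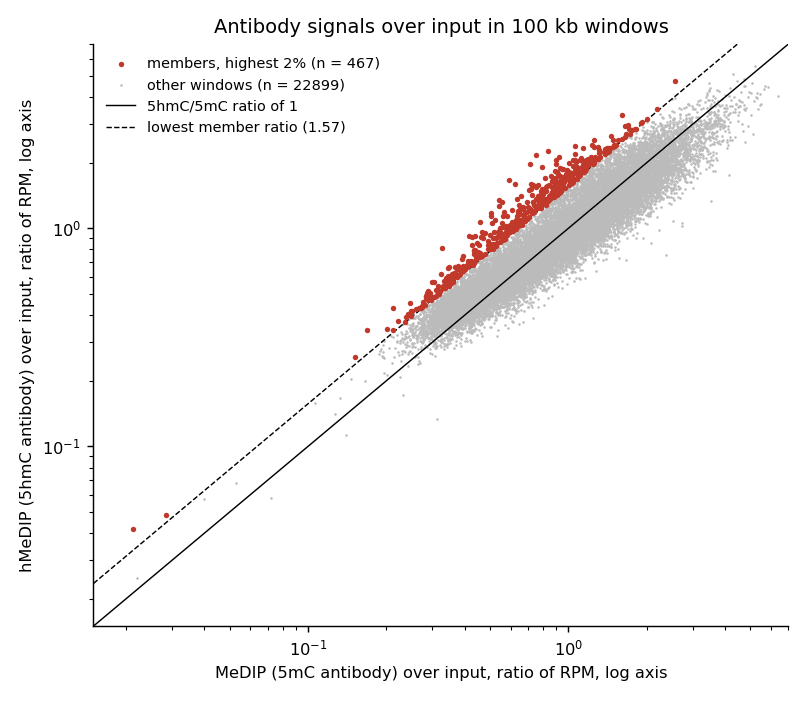
hMeDIP over input (vertical, log axis) against MeDIP over input (horizontal, log axis), with 1 point per 100 kb window, members in red and other windows in grey. The members run along the upper edge of the cloud over its whole length, from windows poor in both signals to windows above input in both, and the dashed line is the lowest member ratio of 1.57. The other windows with the very lowest values fall outside the axes.

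Neither antibody alone set the members apart. hMeDIP was above input in 298 members (63.8%), where 40.6% of all windows were, and at 1.5-fold or more in 178 (38.1%), against 19% (4449) of all windows. MeDIP was below input in 352 members (75.4%), against 57.8% of all windows, and it reached 1.5-fold in 19 members (4.07%), against 20.8% of all windows. Since the rule used these libraries, the counts are a description. Most members were of 3 kinds by their position relative to input. In 183 members (39.2%) hMeDIP was above input and MeDIP below it, a combination that only 3.87% of all windows had, and 81 of these (17.3% of members, against 1.45% of all windows) had the 600 mM eluate above input too. All 3 of hMeDIP, MeDIP and the 600 mM eluate were below input in 168 members (36.0%), against 52.8% of all windows, and all 3 were above it in 109 (23.3%), against 34.7%.

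MethylCap played no part in the choice of members, and at the settings reported here the share of members above input was near that of all windows. With some other settings it was below or above that share, as given at the end. The 600 mM eluate was above input in 191 members (40.9%, interval 36.4 to 45.5%), and in 40.5% of all windows. At 1.5-fold or more it was seen in 76 members (16.3%), against 24.8% of all windows. The 800 mM eluate was above input in 205 members (43.9%), against 39.6% of all windows. The median 600 mM ratio to input was 0.847 in the members, 2.04 in the 467 windows with the lowest 5hmC/5mC ratio and 0.763 over all windows. Without division by input, the median 600 mM signal was 50.4 RPM in the members, 70.0 RPM in the lowest ratio windows and 31.4 RPM over all windows. At these settings the members were thus near the typical window per input read and above it in RPM, and the lowest ratio windows were above the members on both scales.

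The extremes of MethylCap level showed how different members can be. The highest 600 mM ratio was on chromosome 5 at 125600001–125700000, with 1196 reads against 695 of input (3.07-fold), where hMeDIP was 3.07-fold and MeDIP 1.92-fold over input. It was followed by chromosome 2 at 168500001–168600000 and chromosome 4 at 140800001–140900000, both at 3.06-fold, with hMeDIP at 2.56-fold and 3.31-fold. These 3 members were well above input in all the enriched libraries, MeDIP included, where the members on chromosomes 2 and 4 stood at 1.61-fold. The lowest was on chromosome 4 at 112900001–113000000, with 14 hMeDIP, 4 MeDIP, 1 read at 600 mM and 8 at 800 mM over 336 input reads, and the interval of its 5hmC/5mC ratio ran from 0.620 to 8.23. The next, on chromosome 7 at 67300001–67400000, held 84 hMeDIP, 28 MeDIP, 11 reads at 600 mM and 13 at 800 mM over 329 input reads, with an interval of the ratio from 1.09 to 2.70. The third lowest, on chromosome 5 at 88500001–88600000, held 388 hMeDIP, 124 MeDIP, 39 reads at 600 mM and 36 at 800 mM over 776 input reads, with an interval from 1.44 to 2.18. The ratios on chromosomes 4 and 7 rest on few reads.

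Across deciles of all windows by 600 mM reads, the share of members was uneven. It was 2.10% (49 members) in the decile with fewest reads, 0.514% (12 members) in the third, and rose to 4.15% (97 members) in the eighth before it stood at 1.88% (44 members) in the decile with most reads. The median 5hmC/5mC ratio of all windows was 1.18 in the first of these deciles and 0.931 in the last, so the typical window poor in captured DNA had the higher ratio. Members of the first decile had medians of 0.485-fold for hMeDIP and 0.293-fold for MeDIP over input, with 115 MeDIP reads at the median. Members of the eighth had 1.53-fold and 0.882-fold, with 504 MeDIP reads. Of the 49 members with fewest 600 mM reads, 2 had a neighbouring member, while of the 97 in the eighth decile 29 did.

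The input itself was denser in the members. They held a median of 1011 input reads, with 10% of members under 685.6 and 10% over 1332, against 640 in the windows with the lowest ratio and 731 over all windows. Input was above the median window in 404 members (86.5%, interval 83.1 to 89.5%), against 49.9% of all windows and 97 (20.8%) of the lowest ratio windows. The decile of windows with most input reads, those with 1000 or more, held 246 of the 467 members, which is 10.5% of that decile (interval 9.31 to 11.8%). In each of the 5 deciles with fewest input reads, at most 13 windows (0.557%) were members. Over these deciles of all windows, the median 5hmC/5mC ratio was 0.944 with fewest input reads and 1.19 with most. The part of input density in the ratio was not tested, and the input came from another line than the antibody libraries.

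**Figure D3:**
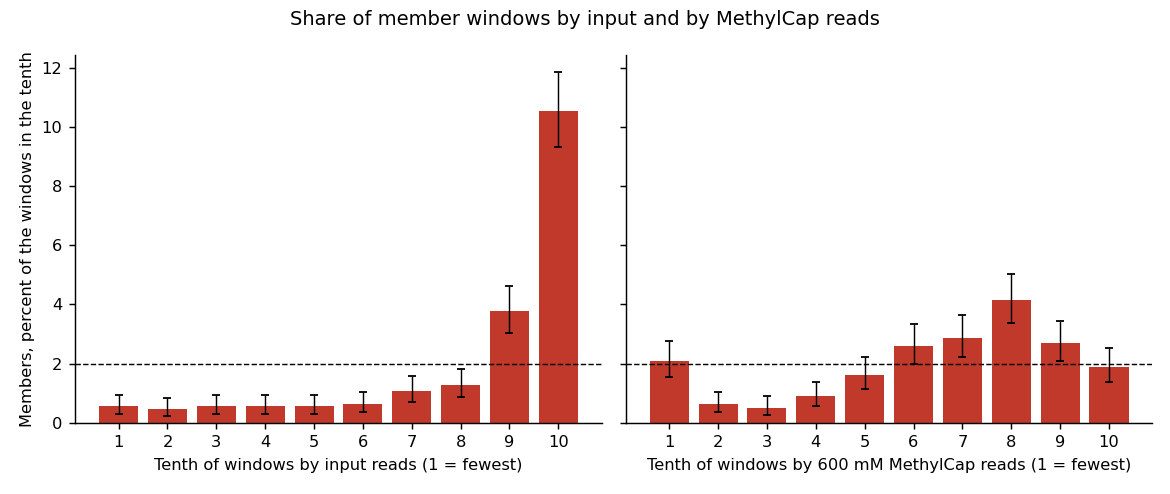
Percent of windows that are members (vertical) in deciles of all windows by input reads (left) and by 600 mM MethylCap reads (right), with exact 95% intervals for counting error and the overall 2% as a dashed line. The share reaches 10.5% in the decile with most input reads, and by MethylCap reads it is highest, at 4.15%, in the eighth decile.

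Input density and MethylCap level were then combined, in 5 groups of each. Among windows in the fourth quintile of 600 mM reads, 146 of 1569 windows with the highest quintile of input reads were members (9.31%), and none of 530 with the lowest quintile, which allows a share of up to 0.566%. Among windows in the lowest quintile of 600 mM reads the input made less difference, with 3 members of 221 windows (1.36%) at the highest input and 15 of 1338 (1.12%) at the lowest. At the highest input, the second, the middle and the highest quintile of 600 mM reads held 3.82%, 7.35% and 6.71% members. With dense input the share of members was thus higher in each of the other quintiles of captured DNA than in the lowest.

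To compare members with windows of equal MethylCap signal, each was matched to the 5 other windows nearest in 600 mM reads. The members had a median of 527 such reads, the matched windows also 527, and no pair differed by more than 4 reads. Against the median of its matched windows, MeDIP over input was lower in 437 of 467 members (93.6%, interval 91.0 to 95.6%), at a median of 0.639-fold of the matched value. hMeDIP over input was higher in 328 members (70.2%, interval 65.9 to 74.3%), at a median of 1.12-fold. The matched windows were not members, and all 467 members had a higher 5hmC/5mC ratio than each of theirs. A difference in the antibodies thus follows from the choice, and these shares are a description. The matching was on reads, and per input read the 600 mM signal was not equal: it was below the matched median in 400 members (85.7%), at a median of 0.762-fold. With windows matched on 600 mM over input instead, hMeDIP over input was higher in 90.8% of members and MeDIP over input lower in 91.4%.

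The order of the antibodies turned when input was left out. In RPM without division by input, hMeDIP was higher in 438 members (93.8%), at a median of 1.5-fold of the matched value, and MeDIP lower in 388 (83.1%), at 0.844-fold. These shares too are a description, since the rule used both antibodies. Input reads were higher in 399 members (85.4%) than in their matched windows, at a median of 1.31-fold, so that ratios to input are lower in the members than their RPM alone. The ratio of the 800 mM to the 600 mM eluate, which the rule did not use, had a median of 1.00 in members, 0.981 in matched windows and 0.972 over all windows. It was above 1 in 236 members (50.5%) and in 235 of the lowest ratio windows (50.3%), against 41.9% of all windows. A ratio above 1 was thus not particular to the members. The ratio was above the matched median in 264 members (56.5%). Without the reads that carry a 1 in column 4 that share was 49.8%, which turned its direction. Summed over windows, the 800 mM to 600 mM ratio was 1.06 (interval 1.05 to 1.06) in members, 1.003 in matched windows and 1.015 in the lowest ratio windows. The sum gives more weight to windows with many reads. Some members were far from the median, as on chromosome 11 at 75500001–75600000, with 1574 reads at 800 mM and 496 at 600 mM. The part of such windows in the sum was not tested.

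**Figure D4:**
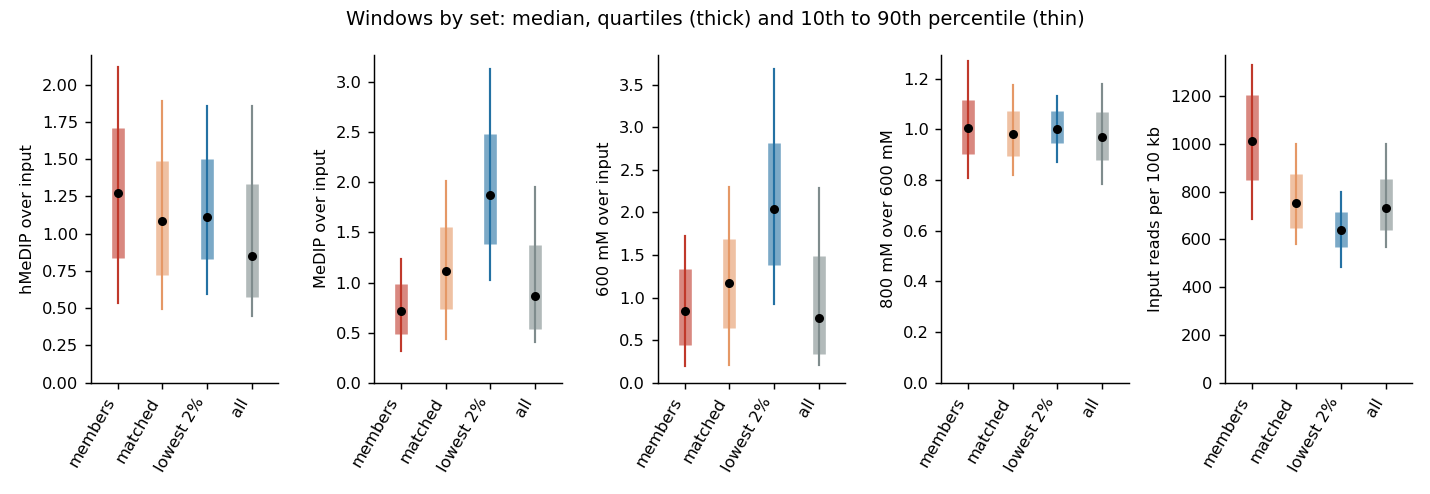
Median (dot), quartiles (thick line) and 10th to 90th percentile (thin line) of 5 measures per 100 kb window in the members, the windows matched on 600 mM reads, the windows with the lowest 2% of 5hmC/5mC ratio and all windows. The members are lower than their matched windows in MeDIP and 600 mM over input, and higher in hMeDIP over input and in input reads, with medians of 1011 in members and 753 in matched windows.

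The members and the windows with the lowest ratio differed in both antibodies, and which differed more depended on the division by input. Both sets were chosen by the ratio of these antibodies, so a difference follows from the choice and the values are a description. In RPM, hMeDIP had a median of 74.6 in the members and 39.1 in the lowest ratio windows, and MeDIP had 41.8 and 64.9. hMeDIP over input had a median of 1.27 in the members and 1.11 in the lowest ratio windows, whereas MeDIP over input had 0.713 and 1.87. Bins of 1 kb at 3-fold or more over input, with 0.5 RPM added to each library, were counted per window. The medians were 3 for hMeDIP and 1 for MeDIP in the members, and 1 and 6 in the lowest ratio windows. Over all windows they were 1 and 1, so in MeDIP bins the members equalled all windows at the median only. The upper quartile of MeDIP bins was 2 in the members and 4 over all windows, and the 90th percentile was 4 and 7. In the upper part of the range the members thus held fewer MeDIP bins. The members held 3.32% of hMeDIP reads, 1.90% of MeDIP reads, 2.37% of reads at 600 mM and 2.55% of input reads.

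Inside a member the high ratio was spread over its 10 kb steps. At the median 90% of these steps were above the median step, against 50% in the matched windows, and the member with the fewest had 50%. The steps hold the reads that chose the members, so a higher share than in matched windows follows from the choice. The 1 kb bin with most hMeDIP reads held a median of 4.60% of a member's hMeDIP reads, against 5.76% in matched windows. Members also held more hMeDIP reads, with a median of 1382 against 867, and the part of this depth in the bin's share was not tested. Without that bin, 425 of the 467 members (91.0%) were chosen again.

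On the scale of neighbouring windows the members were short, and the name of large domains holds for few of them. Of the 467 members, 112 (24.0%, interval 20.2 to 28.1%) had another member directly beside them, against 788 of 22899 other windows (3.44%). Of the lowest ratio windows, 119 (25.5%) had one of their own kind beside them, and 1 had a member beside it. The members formed 355 single windows, 44 pairs and 8 runs of 3 windows, and none was longer than 300 kb. When gaps of 1 window were bridged, 387 groups remained and the longest held 5 members.

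All 8 runs of 3 windows are equally long, and the 6 with the highest ratio are described. The highest lay on chromosome 4 at 132500001–132800000. It held 5772 hMeDIP, 1613 MeDIP, 2489 reads at 600 mM, 1679 at 800 mM and 2926 input reads, a ratio of 2.02 (interval 1.91 to 2.13), and the windows within 500 kb on either side were at 1.29. The run on chromosome 13 at 44700001–45000000 had a ratio of 1.95, with hMeDIP at 1.12-fold and MeDIP at 0.576-fold over input, and 0.957 in its flanks. The run on chromosome 13 contains the window ranked 7, and over it MeDIP was well below input while hMeDIP was little above it.

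The run on chromosome 1 at 183800001–184100000 had a ratio of 1.88 and flanks at 0.887, and that on chromosome 11 at 88300001–88600000 had 1.82 and flanks at 1.27. Runs on chromosome 6 at 72600001–72900000 and chromosome 7 at 87100001–87400000 both had 1.73, with flanks at 0.933 and 1.06. In these 4 runs hMeDIP was between 1.38-fold and 1.95-fold over input, MeDIP between 0.737-fold and 1.07-fold, and the 600 mM eluate between 0.967-fold and 1.52-fold. Since the ratio chose the runs, a lower ratio in the flanks follows from the choice, and its values are given as a description.

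Around all members the ratio fell off within a few windows. Its median was 1.2 in the windows 100 kb before and 1.2 in those 100 kb after, 1.10 and 1.08 at 200 kb, and 1.03 and 1.02 at 1000 kb on either side, near the median of 1.01 over all windows. Input reads followed the same course, with a median of 1011 in the members, 871 and 880 at 100 kb and 746 and 730 at 1000 kb. MeDIP over input was lower in the members, at a median of 0.713, than at 200 kb on either side, at 1.19 and 1.18, and the 600 mM eluate was 0.847 in the members against 1.27 and 1.29 there. hMeDIP over input did not show that dip, with a median of 1.27 in the members against 1.24 and 1.29 at 200 kb. The antibody values follow in part from the choice of members, while MethylCap was not used in it. Input reads were highest in the members, and their part in these ratios was not tested.

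**Figure D5:**
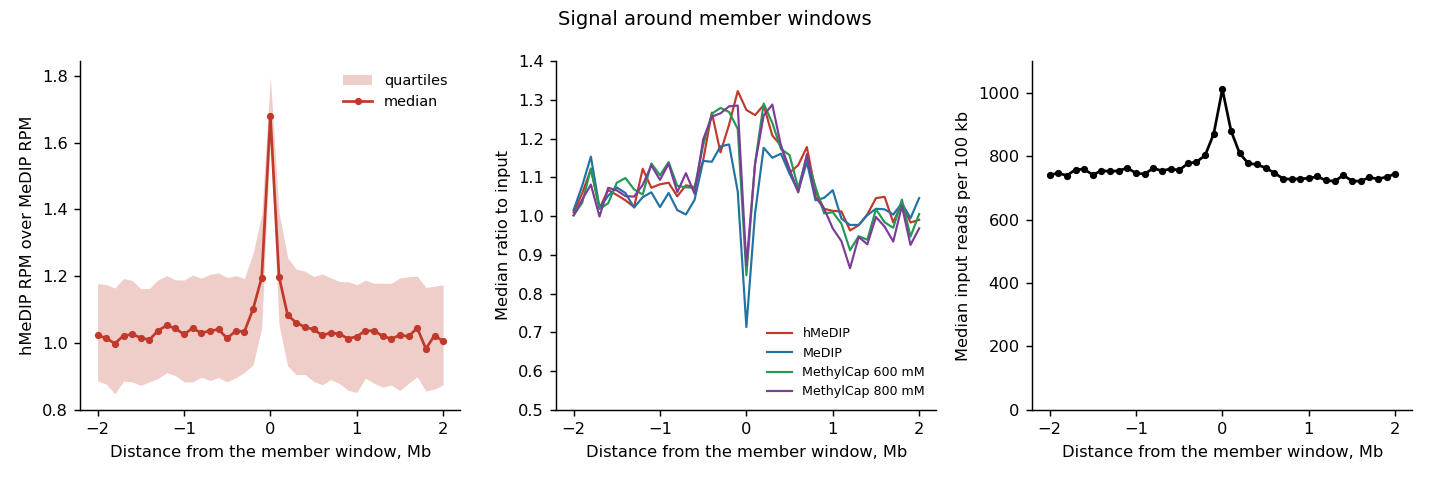
Median 5hmC/5mC ratio with quartiles (left), median ratio to input of 4 libraries (middle, axis not from 0) and median input reads per 100 kb (right) against the distance in Mb from the member windows. The ratio and the input reads peak at the member, while MeDIP and both MethylCap eluates dip there.

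Members lay on every autosome. The share of windows that were members was highest on chromosome 11, with 48 of 1184 (4.05%, interval 3 to 5.34%), followed by chromosome 7 with 42 of 1282 (3.28%) and chromosome 4 with 42 of 1467 (2.86%). It was lowest on chromosome 9, with 14 of 1203 (1.16%, interval 0.638 to 1.94%). The intervals of chromosomes 11 and 9 do not overlap, but neighbouring windows are not independent. Those of the other chromosomes apart from 7 and 4 include 2%. Along the chromosome the members showed no favoured end. The distal 10% of chromosome length held 48 members (10.3%), against 10.3% of all windows, whereas 106 (22.7%) of the lowest ratio windows lay there. The 10% at the centromere held 24 members of 1753 windows (1.37%).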

How the data were processed

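Each line of the deposited files is the position of 1 read of 35 bp. The submitters' processing notes name BWA 0.5.8 and the mm9 build. The deposited read count of each line was 1, so counts of lines are raw read counts; filters on duplicates are not given in the sources used here. The deposited column 4, a 0 or 1 that has no stated unit or meaning, was 1 for 7.88% of reads at 600 mM, 8.22% at 800 mM and 8.38% of input reads, and for none of hMeDIP and MeDIP.

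The midpoint of a read placed it in a 1 kb bin, and bins were summed to 100 kb windows (Python 3.11.15, NumPy 2.4.6, pandas 2.3.3, SciPy 1.17.1). RPM used reads on chromosomes 1 to 19 and X. Of 23931 autosomal windows with a read, 565 had under 300 input reads and were left out. Matched windows were taken with reuse (1853 distinct windows), equal matches in order of position, which favours low chromosome numbers, so location was not compared with them. Chromosome ends were taken as the last read. A count of 0 allows up to 3 counts. Steps of 10 kb needed 20 input reads. The code for selection and intervals was run on simulated Poisson counts with known ratios in randomly placed windows. That run checks the code only, not the intervals of windows chosen by their ratio. Named windows are the 10 highest ratios, the 6 longest runs (ties broken by ratio), 3 windows on either side of the threshold, 3 at either end of 600 mM over input and the extreme chromosomes; the members, lists and rules were chosen with earlier results of these data known. Alternatives were window size and borders, input minimum, share of windows, added reads, column 4, strand and matching.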

Additional observations from a re-analysis of the deposited data

Results flagged for a closer look

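Chromosome X was outside the rule, and 78 of its 1415 windows with 300 or more input reads (5.51%, interval 4.38 to 6.83%) had a 5hmC/5mC ratio at or above that of the lowest member, with values up to 2.21. These 78 windows drew attention because they reach the lowest member ratio in data that the choice of members left out. They held a median of 87.5 MeDIP and 577 input reads, and the 600 mM eluate was at a median of 0.163-fold over input. Over all windows of X the median ratio was 1.16, with hMeDIP at 0.387-fold and MeDIP at 0.347-fold over input. On the autosomes the share of members is 2% by the rule. The autosomal decile with fewest 600 mM reads had a median ratio of 1.18, with hMeDIP at 0.453-fold and MeDIP at 0.383-fold. Of the windows in that decile, 2.10% were members. The input was of another line, and its part in these values was not tested.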

How the results depend on the processing

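The summed 5hmC/5mC ratio of the members, 1.74 as reported, was 1.98 with 50 kb windows, 1.56 with 200 kb windows, 1.77 with a minimum of 600 input reads, 1.87 and 1.6 for the highest 1% and 5% of windows, 1.72 with 50 reads added, 1.73 without the densest hMeDIP bin and 1.61 on the strand not used to choose. The share with the 600 mM eluate above input, 40.9% against 40.5% of all windows, moved both ways. It was 31.1% with 50 kb windows (39.7% of all windows) and 50.6% with 200 kb windows (41.5%). It was 49.3% with 50 reads added, 30.4% when chosen by strand and 28.7% when chosen within deciles of 600 mM reads. Over all windows the share in these last settings was 40.5%. The share with a neighbouring member, 24.0%, was 17.0% with 200 kb windows, 19.9% with shifted borders, 18.4% and 28.2% for the highest 1% and 5%, 16.7% by strand and 18.7% within deciles. The share with input above the median window, 86.5%, was 79.1% with 50 kb windows, 80.3% with shifted borders, 90.2% and 77.2% for the highest 1% and 5%, 92.5% with 50 reads added, 72.8% by strand and 79.8% within deciles. The share with hMeDIP above and MeDIP below input, 39.2%, was 34.5% with 200 kb windows, 43.9% with a minimum of 600 input reads, 53.0% and 28.6% for the highest 1% and 5%, 44.3% with 50 reads added, 30% by strand and 31.3% within deciles.

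Against matched windows, hMeDIP over input was higher in 70.2% of members as reported, in 76.3% with shifted borders, 74.5% without the densest bin, 63.4% by strand, 64.0% matched on 800 mM reads, 90.8% matched on 600 mM over input and 93.8% in RPM. MeDIP over input was lower in 93.6%, in 96.6% and 88.0% for the highest 1% and 5%, 80.1% by strand, 90% within deciles and 83.1% in RPM. The 800 mM to 600 mM ratio was higher in 56.5%, but in 49.8% without reads with a 1 in column 4, which turned it; it was 51.9% with 50 kb windows, 51.4% for the highest 5%, without the densest bin, and with equal matches taken from the last chromosome first, and 61.5% matched on 600 mM over input. The causes were not tested. The RPM comparison and the order of equal matches were added after seeing the data. So were the shares with input above the median window and with hMeDIP above and MeDIP below input. The share in the distal 10% of chromosome length stayed between 8.57% and 12% in its 12 alternatives. No paired analysis was possible because each group holds 1 library, and none could be left out. Depth limits members with few MeDIP reads most.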
